A study of Mus musculus with 7 samples.

Results

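The mouse array table held 47 transcript clusters for 43 collagen genes, chosen by symbol (Col, a type number, the letter a and a chain number) out of 20719 named genes. Where a gene had more than 1 cluster, the brightest on average stood for it. The 43 genes comprised 11 fibrillar collagens, 8 collagens of basement membranes and 24 others. The samples were GFP-positive cells sorted from adrenals of 6-week-old male C57BL/6J mice of 2 reporter lines. In the SF1+ group (4 arrays, genotype Sf1:eGFP), eGFP was driven by a 50 kb genomic fragment of Nr5a1, the gene of the steroidogenic factor SF1. In the Wnt+ group (3 arrays, genotype TCF/Lef:H2B-GFP), an H2B-GFP fusion was under repeated TCF/Lef sites with a minimal Hspa1b promoter. Each array held RNA of an independent sort of 10 pooled adrenals, amplified from 5 ng, and no treatment or other allele is labelled in either group. The comparison asked how cells sorted on the Wnt reporter differ from cells sorted on the SF1 reporter. Since the groups are different transgenic lines, line and cell population cannot be told apart.

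Collagens are trimers of alpha chains wound into a triple helix. Fibrillar collagens such as types I and III form the tensile fibrils of connective tissue and are made mainly by fibroblasts. In the adrenal these lie in the capsule and the stroma. Collagen IV forms the sheet-like network of basement membranes, which line the sinusoidal endothelium and surround groups of cortical cells. Collagen VI makes beaded microfilaments, and fibril-associated collagens such as types XII and XIV sit on the surface of fibrils.

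Sequence at the start of the gene is shown for genes on which the results below turn: Col1a2 and Col3a1, which had the same order of Wnt+ arrays, Col6a1, and the adjoining starts of Col4a1 and Col4a2, whose gene pair is transcribed in opposite directions. Sequences are from RefSeq, build GRCm38.p6, written 5′ to 3′ on the strand of the gene, and for the Col4a1 and Col4a2 pair on the plus strand. Capitals mark a CCAAT box (CCAAT or ATTGG), a GC box (GGGCGG or CCGCCC) or a TCF/Lef word, which is CAAAG with an A or a T at each of the 2 positions before it, on either strand. No marked word overlaps another in these stretches.
Col1a2 (chr6:4505368-4505617, plus strand): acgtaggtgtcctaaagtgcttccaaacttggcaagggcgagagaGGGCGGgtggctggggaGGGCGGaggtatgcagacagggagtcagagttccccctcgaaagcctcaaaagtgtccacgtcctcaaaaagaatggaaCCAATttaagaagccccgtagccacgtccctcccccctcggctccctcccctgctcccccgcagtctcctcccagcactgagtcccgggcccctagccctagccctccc
Col3a1 (chr1:45311288-45311537, plus strand): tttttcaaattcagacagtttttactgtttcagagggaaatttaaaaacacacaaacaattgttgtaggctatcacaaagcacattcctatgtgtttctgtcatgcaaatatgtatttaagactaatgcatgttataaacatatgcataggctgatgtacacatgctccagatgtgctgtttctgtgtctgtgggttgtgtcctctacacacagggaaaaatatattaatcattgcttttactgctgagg
Col6a1 (chr10:76726045-76726294, minus strand): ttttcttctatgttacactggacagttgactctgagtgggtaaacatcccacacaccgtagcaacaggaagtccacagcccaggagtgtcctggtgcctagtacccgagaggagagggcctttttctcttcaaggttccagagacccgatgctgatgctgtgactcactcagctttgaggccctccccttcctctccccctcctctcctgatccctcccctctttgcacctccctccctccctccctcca
Col4a1 and Col4a2 (chr8:11312805-11312826): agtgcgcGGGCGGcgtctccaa

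The stretches of Col1a2, Col3a1 and Col6a1 are the 250 bases before the annotated start. The fourth runs from the annotated start of Col4a2, on the plus strand, to that of Col4a1, on the minus strand, so the 2 transcripts begin within 22 bases of each other around 1 GC box and these bases lie within both. Col1a2 held 1 CCAAT box and 2 GC boxes, while Col3a1 and Col6a1 held none of the searched words. RefSeq start regions were at hand for 35 of the 43 genes. A CCAAT box stood in the window of 13 of the 35 (37.5% of 27025 genes), a GC box in 21 (35.4% of genes) and a TCF/Lef word in 7 (16.8% of genes). These are matches of letters on either strand and not binding sites.

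Values are log2 units after robust multi-array averaging, and all differences are Wnt+ minus SF1+ on that scale. The median of an array lay between 2.92 and 3.02. Adrenocortical marker genes were bright in every library, with the mean of 9 genes at 7.61 to 8.37 in SF1+ and 8.73 to 9.36 in Wnt+, and 9 of 9 had positive differences. Nr5a1, the gene behind the SF1+ reporter, was itself lower in SF1+, at 5.75 ± 0.47 (SD, n = 4) against 7.30 ± 0.38 (SD, n = 3) in Wnt+ (limma adjusted p = 0.0938). The sorts also held RNA of other cell types. The mean of 12 endothelial markers was 8.10 to 8.58 in SF1+ and 7.87, 5.66 and 7.11 in Wnt+ replicates 1, 2 and 3. The mean of 12 fibroblast and capsule markers was 4.30 to 5.17 in SF1+ and 5.65, 4.46 and 5.56 in Wnt+ replicates 1, 2 and 3. The mean of 8 chromaffin markers was 4.37 to 5.77 in SF1+ and 7.03, 5.70 and 6.83 in Wnt+ replicates 1, 2 and 3, and 8 of 8 had positive differences, with a median of 1.19. Among them Th, tyrosine hydroxylase of catecholamine synthesis, differed by 2.56 (SE 0.81), and Pnmt, which makes adrenaline, by 2.09 (SE 0.38). Wnt+ replicate 2 thus had the lowest endothelial, fibroblast and chromaffin means of the Wnt+ libraries and, at 9.36, the highest adrenocortical mean of all 7. In such sorted pools, fewer cells of a type and less RNA per cell cannot be told apart.

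No collagen gene passed the threshold between Wnt+ and SF1+. Of 43, 0 had an adjusted p under 0.05 with limma, where 0.256% of all genes did. The lowest adjusted p was 0.0685, for Col18a1. An unadjusted p under 0.05 was reached by 7 of 43 collagens (16.3%), against 15.5% of all genes. Of these, 5 collagens were higher in Wnt+ (Col18a1, Col6a1, Col14a1, Col20a1 and Col12a1, 11.6% against 7.61% of all genes) and 2 were lower (Col4a1 and Col25a1, 4.65% against 7.89%). Every Wnt+ array lay above every SF1+ array in 3 collagens (7.04% of all genes) and below in 4 (7.07% of all genes). These shares of 43 genes, 6.98% and 9.30%, were near the background. The median difference was 0.05 over the collagens and 0.02 over all genes. The count of 5 was 2 without SF1+ replicate 3, SF1+ replicate 4, Wnt+ replicate 1 or Wnt+ replicate 3, 3 without SF1+ replicate 2, and 10 without Wnt+ replicate 2. The count of 2 was 1 without SF1+ replicate 2, 3 or 4 or Wnt+ replicate 2.

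Most collagen clusters read near the lower end of the arrays. In 34 of the 43 genes no array reached a log2 value of 4, and their differences ran from -0.21 to 0.44. Differences of such dim clusters are compressed. The 9 genes that reached 4 in any array were Col1a1, Col1a2, Col3a1, Col4a1, Col4a2, Col15a1, Col6a1, Col6a5 and Col14a1. Their differences ran from -0.68 for Col15a1 to 0.96 for Col14a1.

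**Figure D1:**
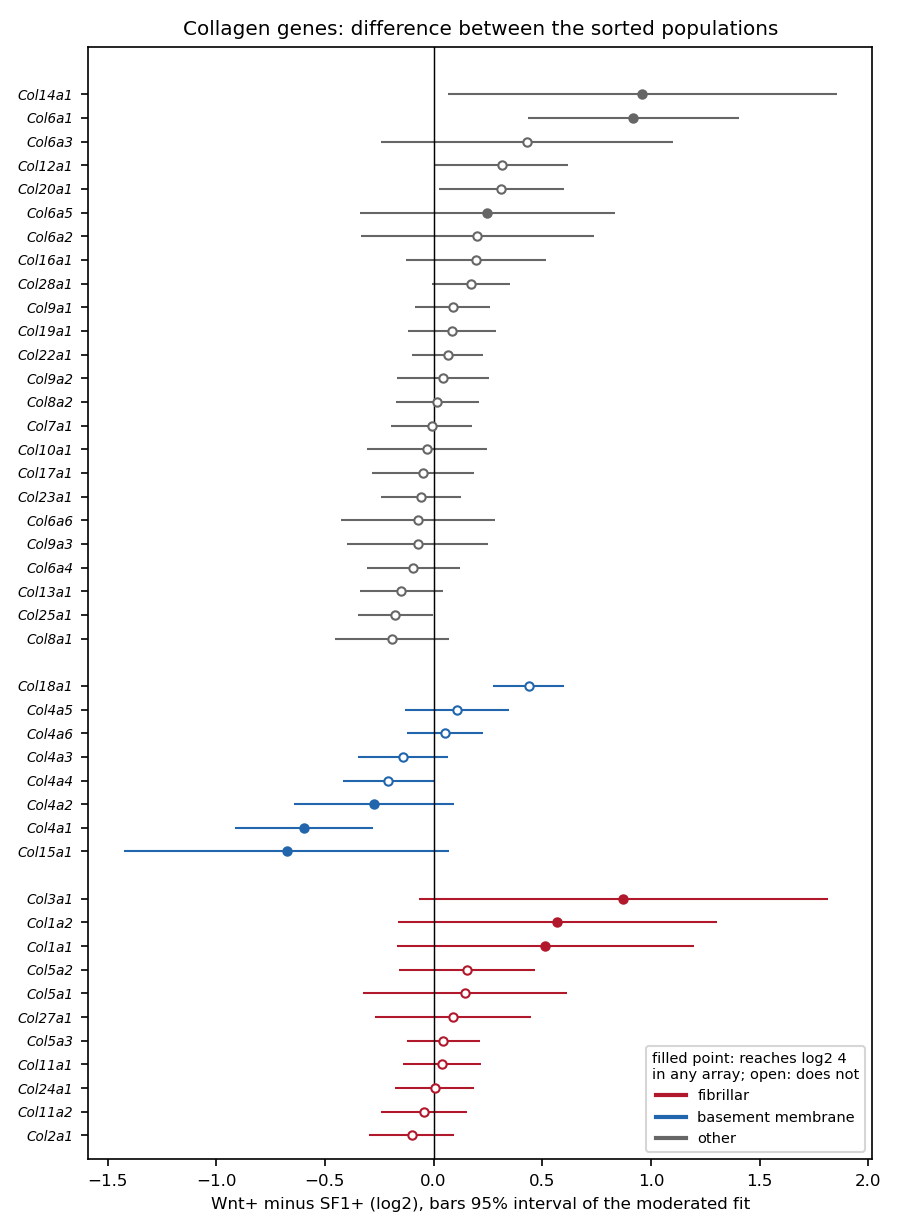
Difference between Wnt+ (3 arrays) and SF1+ (4 arrays) in log2 units for each of the 43 collagen genes, by class, with 95% intervals of the moderated fit. Filled points reach a log2 value of 4 in any array. Col14a1, Col6a1 and Col3a1 lie farthest to the right, Col15a1 and Col4a1 farthest to the left, and most open points lie close to 0.

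Among the fibrillar collagens, the 3 bright genes had higher means in Wnt+, but in 2 of the 3 Wnt+ libraries only, and none passed the test. Col3a1, the single chain of collagen III, a fibril of stretchable tissues, had log2 values of 3.86, 4.36, 4.07 and 3.90 in SF1+ replicates 1 to 4 and 5.38, 3.86 and 5.52 in Wnt+ replicates 1 to 3. Wnt+ replicates 1 and 3 were above all SF1+ arrays and Wnt+ replicate 2 was among them, so the groups overlapped. Group means were 4.05 ± 0.23 (SD, n = 4) and 4.92 ± 0.92 (SD, n = 3), a difference of 0.87 (SE 0.40, 95% interval -0.07 to 1.81, limma adjusted p = 0.36).

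Col1a1 and Col1a2 encode the chains of collagen I, the main fibril of capsule, tendon and skin. Col1a1 was at 3.88, 4.18, 4.15 and 3.89 in SF1+ and at 4.71, 3.81 and 5.10 in Wnt+. It differed by 0.51 (SE 0.29, 95% interval -0.17 to 1.20, limma adjusted p = 0.464). Col1a2 was at 4.13, 4.61, 4.75 and 4.33 in SF1+ and at 5.28, 4.28 and 5.51 in Wnt+. Both genes repeated the array pattern of Col3a1, with Wnt+ replicate 3 highest, replicate 1 next, and replicate 2 within or below the SF1+ values. Col1a2 differed by 0.57 (SE 0.31, limma adjusted p = 0.45).

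The Wnt+ libraries differed more among themselves than the SF1+ libraries in these genes. The SD was 0.66 for Col1a1, 0.66 for Col1a2 and 0.92 for Col3a1 in Wnt+, against 0.16, 0.28 and 0.23 in SF1+. Without Wnt+ replicate 2 the differences were 0.88 for Col1a1, 0.94 for Col1a2 and 1.40 for Col3a1 (limma adjusted p of 0.129, 0.166 and 0.0679). Without Wnt+ replicate 3 they were 0.23, 0.33 and 0.57. The mean of the fibroblast and capsule markers was, like these 3 genes, lowest in replicate 2 among the Wnt+ libraries. Of the 12 markers, 10 had positive differences (54.8% of all genes), with a median of 0.62. An unadjusted p under 0.05 was reached by 2, with higher values (7.61% of all genes). The markers with negative differences were Nr2f2 (-0.41, SE 0.26) and Rspo3 (-0.22, SE 0.21). The chromaffin mean had the pattern too, with Wnt+ replicates 1 and 3 above all SF1+ arrays and replicate 2 among them. The part of either list in the collagen values was not tested.

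The other 8 fibrillar collagens gave differences between -0.10 and 0.15 and array values between 2.34 and 3.58, and 0 of 8 had an unadjusted p under 0.05. They were Col5a1, Col5a2 and Col5a3, whose collagen V nucleates fibrils, Col2a1, Col11a1 and Col11a2 of cartilage, and Col24a1 and Col27a1. Col5a1 and Col5a2 had Wnt+ replicates 1 and 3 above every SF1+ array, at 3.35 and 3.58 for Col5a1 and 2.99 and 3.05 for Col5a2. Wnt+ replicate 2 read 2.81 and 2.54 in them, below all SF1+ arrays. Averaged over the class, SF1+ arrays gave 3.16 ± 0.04 (SD, n = 4) and Wnt+ arrays 3.37 ± 0.31 (SD, n = 3).

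**Figure D2:**
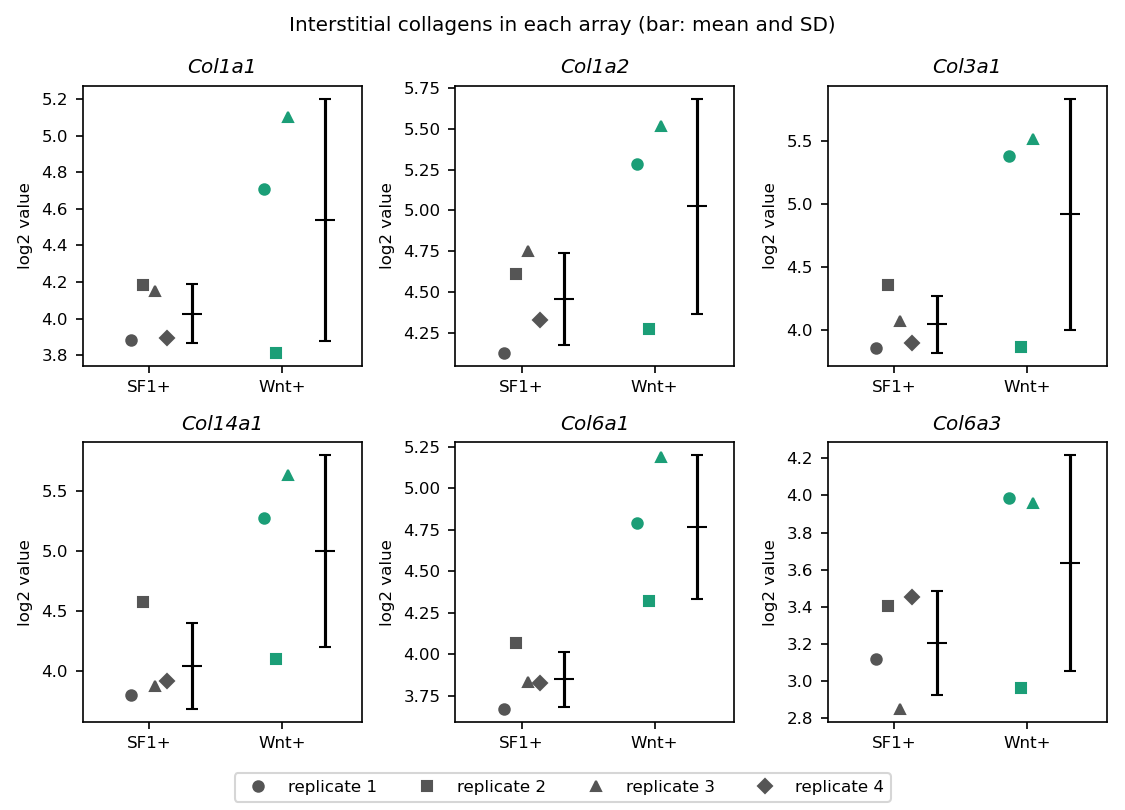
Log2 value of 6 interstitial collagens in each SF1+ array (4, grey) and Wnt+ array (3, green), with symbols for the replicate number and bars for the mean and SD. In every panel Wnt+ replicates 1 and 3 lie above all SF1+ arrays. Wnt+ replicate 2 lies among the SF1+ arrays or below them except in Col6a1.

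Among the other collagens, the microfibril chain Col6a1 and the fibril-associated Col14a1 had the largest differences. Col6a1, which encodes the alpha1 chain of collagen VI, was at 3.67, 4.07, 3.83 and 3.83 in SF1+ and at 4.79, 4.32 and 5.19 in Wnt+. Every Wnt+ array was above every SF1+ array. The difference was 0.92, or 1.89-fold (SE 0.20, 95% interval 0.43 to 1.40, limma adjusted p = 0.123), and it stayed between 0.71 and 1.14 when single arrays were dropped.

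The partner chains of collagen VI did not separate the groups. Col6a3 was at 3.12, 3.41, 2.85 and 3.45 in SF1+ and at 3.99, 2.96 and 3.96 in Wnt+, which overlapped through Wnt+ replicate 2. It differed by 0.43 (SE 0.28, limma adjusted p = 0.541), by 0.25 and 0.27 without Wnt+ replicates 1 and 3, and by 0.77 without Wnt+ replicate 2. Col6a2, whose chain assembles with that of Col6a1, differed by 0.20 (SE 0.23, limma adjusted p = 0.747), with overlapping groups. Whether these differences differ from that of Col6a1 was not tested. Col6a5, an alternative chain, was at 3.46, 3.92, 3.71 and 3.50 in SF1+ and at 4.46, 3.42 and 3.81 in Wnt+, a difference of 0.25 (SE 0.25, limma adjusted p = 0.71) that was -0.04 without Wnt+ replicate 1.

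Col14a1, which encodes a collagen on the surface of fibrils, was at 3.80, 4.58, 3.87 and 3.92 in SF1+ and at 5.27, 4.10 and 5.63 in Wnt+. SF1+ replicate 2 stood above the other SF1+ arrays, and Wnt+ replicate 2 lay below it, so the groups overlapped. The difference was 0.96 (SE 0.38, limma adjusted p = 0.289), and 1.41 without Wnt+ replicate 2. Col12a1, of the same family, differed by 0.31 (SE 0.13, limma adjusted p = 0.311), from 2.63 to 2.74 in SF1+ and at 3.27, 2.74 and 2.97 in Wnt+, and by 0.17 without Wnt+ replicate 1. Col20a1 differed by 0.31 (SE 0.12, limma adjusted p = 0.281), and its dimmer second cluster by -0.05.

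The neuronal transmembrane collagen Col25a1 was the 1 other member of this class with an unadjusted p under 0.05. It was at 2.67, 2.77, 2.72 and 2.74 in SF1+ and at 2.53, 2.48 and 2.63 in Wnt+, all below the array medians. The groups did not overlap, and the difference was -0.18 (SE 0.07, limma adjusted p = 0.319). The remaining 17 genes of the class, which include Col6a2, had differences from -0.19 to 0.20 and array values from 2.16 to 3.97, and 0 of 17 had an unadjusted p under 0.05. They were the collagen VI chains Col6a2, Col6a4 and Col6a6, the anchoring fibril gene Col7a1, the short-chain genes Col8a1, Col8a2 and Col10a1, the fibril-associated Col9a1, Col9a2, Col9a3, Col16a1, Col19a1 and Col22a1, the transmembrane Col13a1, Col17a1 and Col23a1, and Col28a1. Col28a1 had every Wnt+ array above, and Col13a1 every Wnt+ array below, every SF1+ array.

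Some of the collagens shared an array pattern. In 13 of the 43 collagens (30.2%), Wnt+ replicates 1 and 3 were both above every SF1+ array, against 11.4% of all genes. Among the 9 genes that reached a log2 value of 4 it held for 5, against 11.3% of all such genes. In 10 of the 13 (76.9%), Wnt+ replicate 2 was not above all SF1+ arrays, and that share was 38.3% among all genes with the pattern. The 13 were 5 of 11 fibrillar genes (Col1a1, Col1a2, Col3a1, Col5a1 and Col5a2), Col18a1 of the basement membrane class, and 7 of the 24 others (Col6a1, Col6a3, Col12a1, Col14a1, Col16a1, Col20a1 and Col28a1). The pattern was chosen after the values were seen and carries no test. Without Wnt+ replicate 2, 10 of 43 collagens (23.3%) were higher at an unadjusted p under 0.05, against 6.15% of all genes, 1 was lower (Col4a1, against 6.12% of all genes), and 0 had an adjusted p under 0.05 with limma. All 10 were among the 13, so this count restates the pattern and adds no support to it.

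The basement membrane collagens had no common direction, with 3 of 8 positive and 5 of 8 negative differences. Collagen IV alpha1 and alpha2 chains form the common network of vessels and most epithelia. Col4a1 was at 6.21, 6.48, 6.63 and 6.61 in SF1+ and at 6.05, 5.87 and 5.73 in Wnt+. Every Wnt+ array lay below every SF1+ array. The difference was -0.60, or 0.661-fold (SE 0.13, 95% interval -0.91 to -0.28, limma adjusted p = 0.123), and it stayed between -0.69 and -0.52 when single arrays were dropped.

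Col4a2 starts within 22 bases of Col4a1 in the sequence shown above. It was at 4.96, 5.24, 5.53 and 5.45 in SF1+ and at 5.14, 4.86 and 5.07 in Wnt+. SF1+ replicate 1 was low in both genes of the pair, and for Col4a2 it lay within the Wnt+ range. The difference of Col4a2 was -0.27 (SE 0.16, 95% interval -0.64 to 0.09, limma adjusted p = 0.466).

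The multiplexins Col15a1 and Col18a1, which encode collagens of the basement membrane zone, had differences of opposite sign. Col15a1 was at 5.03, 5.29, 5.37 and 5.82 in SF1+ and at 5.07, 3.96 and 5.07 in Wnt+. Wnt+ replicate 2 stood lowest and the other Wnt+ arrays lay just above SF1+ replicate 1. The difference was -0.68 (SE 0.32, limma adjusted p = 0.373), and -0.31 without Wnt+ replicate 2.

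Col18a1, whose product is the parent of endostatin, was at 2.99, 3.02, 3.03 and 2.94 in SF1+ and at 3.38, 3.43 and 3.48 in Wnt+. The groups did not overlap. The difference was 0.44, or 1.35-fold (SE 0.07, 95% interval 0.27 to 0.60, limma adjusted p = 0.0685), and it stayed between 0.41 and 0.46 when single arrays were dropped. The SF1+ mean, 2.99 ± 0.04 (SD, n = 4), lay within the range of the array medians, and the Wnt+ mean, 3.43 ± 0.05 (SD, n = 3), above it.

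The 4 remaining collagen IV chains are those of kidney and other specialised basement membranes. Col4a3, Col4a4, Col4a5 and Col4a6 had array values between 2.27 and 3.26 and differences between -0.21 and 0.11, with 0 of 4 at an unadjusted p under 0.05. For Col4a4 every Wnt+ array lay below every SF1+ array (-0.21, SE 0.09, limma adjusted p = 0.323).

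**Figure D3:**
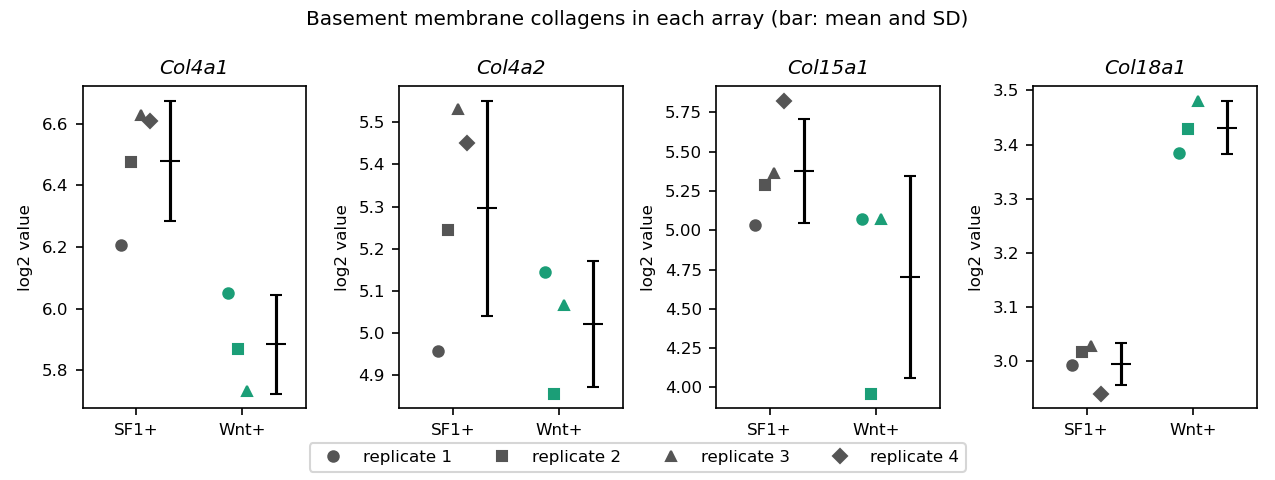
Log2 value of 4 basement membrane collagens in each SF1+ array (4, grey) and Wnt+ array (3, green), with symbols for the replicate number and bars for the mean and SD. Col4a1 lies lower and Col18a1 higher in all 3 Wnt+ arrays, while Col4a2 and Col15a1 overlap between the groups.

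Endothelial markers had differences of the same sign as Col4a1 and Col15a1. Of 12 endothelial markers, 12 had negative differences and 11 an unadjusted p under 0.05 (7.89% of all genes were lower), with a median of -1.54. The difference of their means was -1.48, and -0.87 without Wnt+ replicate 2. Among them Pecam1, an endothelial adhesion molecule, differed by -1.69 (SE 0.46), and Cdh5, the vascular cadherin, by -1.48 (SE 0.41). The endothelial mean was lowest in Wnt+ replicate 2, as was Col15a1, whereas Col4a1 was lowest in Wnt+ replicate 3. Of 11 pericyte and smooth muscle markers, 7 had negative and 4 positive differences, with a median of -0.23, and 3 were lower at an unadjusted p under 0.05. Kcnj8, a pericyte potassium channel gene, differed by -2.03 (SE 0.47), while the pericyte receptor gene Pdgfrb differed by 0.20 (SE 0.34) and Rgs5 by 0.05 (SE 0.46). The part of these markers in the collagen values was not tested.

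**Figure D4:**
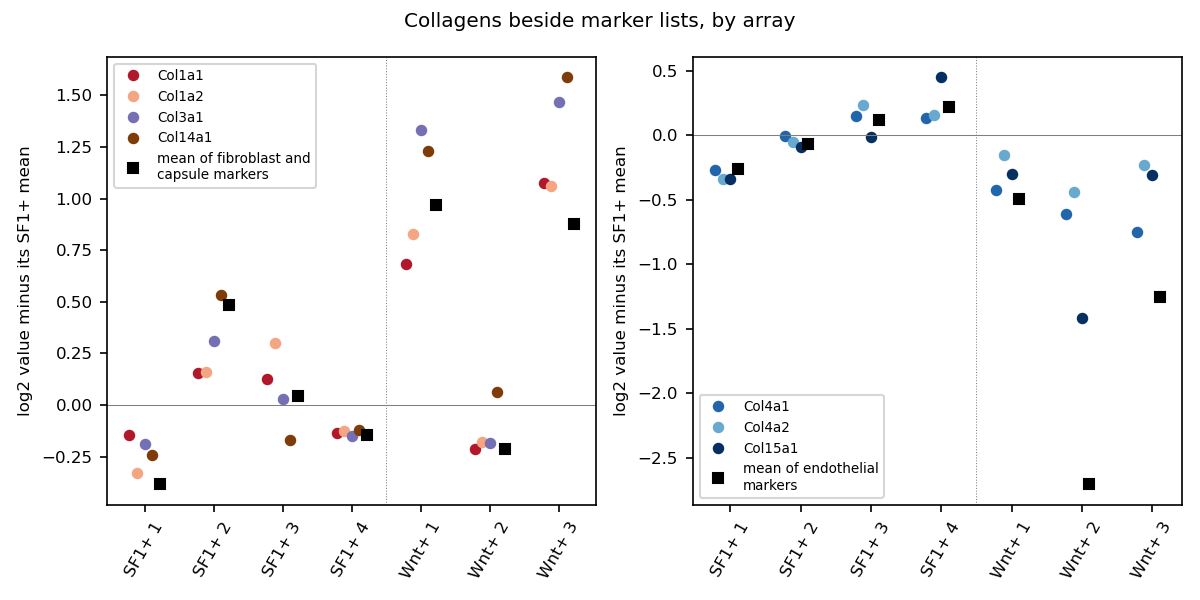
Log2 value minus the mean of the SF1+ arrays, for each of the 7 arrays. The left panel shows Col1a1, Col1a2, Col3a1 and Col14a1 with the mean of 12 fibroblast and capsule markers, and the right panel Col4a1, Col4a2 and Col15a1 with the mean of 12 endothelial markers. Wnt+ replicate 2 is lowest of the Wnt+ arrays for every series on the left, and for the endothelial markers, Col4a2 and Col15a1 on the right.

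Genes that modify, fold and cross-link collagen differed in both directions, and none passed the threshold. Of 30, an unadjusted p under 0.05 was reached by 9 with higher values (7.61% of all genes) and 3 with lower values (7.89% of all genes), 0 had an adjusted p under 0.05 with limma, and the median difference was 0.21. Pcolce, an enhancer of procollagen C-proteinase, was at 8.87, 8.43, 8.43 and 8.84 in SF1+ and at 9.47, 9.96 and 9.71 in Wnt+. It differed by 1.07 (SE 0.17, limma adjusted p = 0.0703). Mia3, which loads collagen into transport carriers, differed by 0.85 (SE 0.14, limma adjusted p = 0.0732), with 3.88 to 4.15 in SF1+ and 4.97, 5.05 and 4.55 in Wnt+.

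The prolyl hydroxylase family gene P3h3 differed by 0.72 (SE 0.13, limma adjusted p = 0.0855). The lysyl oxidase-like gene Loxl2, whose enzyme cross-links matrix proteins, differed by 1.12 (SE 0.22, limma adjusted p = 0.107). In each of these 4 genes all Wnt+ arrays lay above all SF1+ arrays, Wnt+ replicate 2 included. They were picked for the smallest p of the 30, so this separation largely follows from the choice. Over the 30 genes, all Wnt+ arrays lay above all SF1+ arrays in 6 (7.04% of all genes) and below in 3 (7.07% of all genes). The 3 lower genes, named after their values were seen, were the collagen galactosyltransferase genes Colgalt2 (-1.31, SE 0.30) and Colgalt1 (-0.61, SE 0.16) and the peroxidasin gene Pxdn (-1.03, SE 0.35), whose enzyme cross-links collagen IV, each with all Wnt+ arrays below all SF1+ arrays. For Pcolce, Mia3 and Loxl2, Wnt+ replicate 2 had the highest value of all arrays, at 9.96, 5.05 and 5.02. In that array Col1a1, Col1a2 and Col3a1 were lowest or near lowest. The list as a whole did not share this order. The mean of the 30 genes was 5.00, 4.63 and 4.76 in Wnt+ replicates 1 to 3, lowest in replicate 2. P3h3 was also lowest of the Wnt+ arrays in replicate 2, at 4.23, 4.17 and 4.28.

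Partners of fibrils had mostly positive differences. Of 12, 10 had positive differences (54.8% of all genes), with a median of 0.70. An unadjusted p under 0.05 was reached by 1, with higher values (7.61% of all genes). Postn, a matricellular protein that binds collagen I, was at 4.34, 5.38, 4.66 and 4.40 in SF1+ and at 6.47, 5.08 and 6.31 in Wnt+, a difference of 1.26 (SE 0.40, limma adjusted p = 0.206). Fbn1, which forms microfibrils, differed by 1.18 (SE 0.50), Fn1, fibronectin, by 1.08 (SE 0.67), and the fibril-spacing proteoglycan gene Lum by 0.80 (SE 0.53). Their groups overlapped, and Wnt+ replicate 2 was lowest of the Wnt+ arrays in each. The mean of the 12 was 4.89 to 5.90 in SF1+ and 6.45, 5.09 and 6.44 in Wnt+. Of these 12 genes, 2 (Dcn and Lum) were also among the fibroblast markers.

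Partners of collagen IV went in both directions, with an unadjusted p under 0.05 for 2 of 11 in the higher direction (7.61% of all genes) and 3 in the lower (7.89% of all genes) and 0 past the threshold with limma. Lama5, a laminin chain, differed by -0.32 (SE 0.10), the heparan sulfate proteoglycan Agrn by -0.70 (SE 0.23) and the linker protein nidogen-2 (Nid2) by -1.56 (SE 0.53). Lamb1, another laminin chain, differed by 0.79 (SE 0.27). The limma adjusted p of these 4 lay between 0.206 and 0.23. Nid2 overlapped between the groups and was at 5.99, 3.61 and 4.98 in Wnt+, and the other 3 did not overlap.

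No gene of collagen turnover and no collagen receptor passed the threshold. Of 13 turnover genes, an unadjusted p under 0.05 was reached by 1, with higher values (7.61% of all genes). That gene, Mmp2, a gelatinase, was at 3.43, 3.88, 3.23 and 3.17 in SF1+ and at 5.19, 3.60 and 4.88 in Wnt+, a difference of 1.13 (SE 0.39, limma adjusted p = 0.232). Its Wnt+ replicate 2 value lay among the SF1+ arrays. The inhibitors Timp2 and Timp1 differed by 0.96 (SE 0.47) and 1.21 (SE 0.60), and Timp3 by -0.28 (SE 0.14). Of 8 measured receptors, an unadjusted p under 0.05 was reached by 4, 2 in each direction (15.5% of all genes), and 0 passed the threshold with limma. The integrin chain gene Itga2 differed by -0.46 (SE 0.13) and Itga11 by 0.22 (SE 0.08), the receptor kinase gene Ddr1 by 0.36 (SE 0.14) and the leukocyte receptor gene Lair1 by -1.32 (SE 0.53). Of 10 leukocyte markers, 10 had negative differences, as did 9355 of all 20719 genes. Lower values at an unadjusted p under 0.05 were found for 5 (7.89% of all genes). The threshold was passed by 1, Nkg7 (limma adjusted p = 0.0396), against 0.256% of all genes.

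The authors' deposited table also lists, with a fold and a paired p-value, a separate experiment on 4 pairs of mouse adrenocortical tumor cell cultures with a treatment named Bio against vehicle. In the authors' deposited table, 8 of the 43 collagens were lower with Bio at their p under 0.05 (17.3% of all genes) and 1 was higher (18.2% of all genes). Their p-values were not adjusted and no error can be given for the folds. Basement membrane genes made up 4 of the 8. In the authors' deposited table the fold was 0.681 for Col4a1, 0.732 for Col4a2, 0.654 for Col4a5 and 0.658 for Col4a6. Collagen IV genes lie in head-to-head pairs, Col4a3 with Col4a4 included, so this arrangement is not particular to the 4. The 4 genes were picked for being lower with Bio, so their folds below 1 restate that choice. Col4a3 and Col4a4, also of collagen IV, had folds of 0.954 and 0.997 in the authors' deposited table, with their p above 0.05.

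Col14a1 had the lowest fold of the collagens in the authors' deposited table, at 0.358, although its mean was higher in sorted Wnt+ cells than in SF1+ cells. Col5a2 had a fold of 0.744, Col1a1 of 0.855 and Col6a1 of 0.883 in the authors' deposited table. The fold of Col20a1 there was 1.28, and those of Col3a1, Col1a2 and Col18a1 were 0.968, 0.996 and 1.02 with p above 0.05. The 2 experiments used different cells, and whether their differences differ was not tested.

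**Figure D5:**
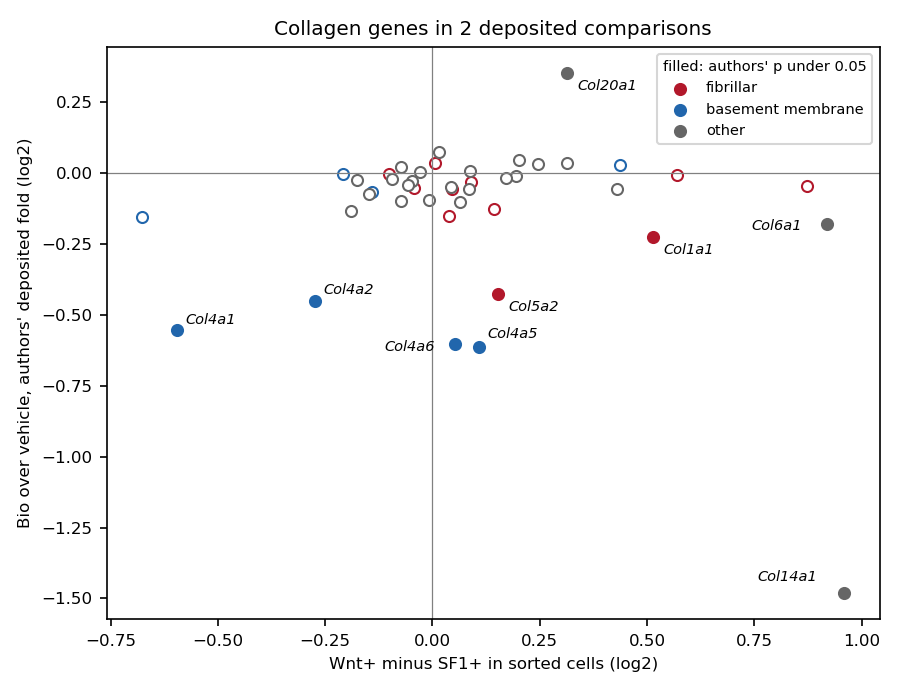
Difference between Wnt+ and SF1+ sorted cells in log2 units (horizontal axis) against log2 of the authors' deposited fold of Bio over vehicle in tumor cell lines (vertical axis), 1 point per collagen gene. Named, filled points have an authors' p under 0.05. The collagen IV genes Col4a1, Col4a2, Col4a5 and Col4a6 and, lowest of all, Col14a1 lie below 0 on the vertical axis.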

How the data were processed

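For 7 Affymetrix mouse gene arrays the authors deposited 1 log2 value per transcript cluster, made with RMA (oligo package) per the submitters' processing notes and from perfect-match probes per the file headers. RMA corrects background, quantile-normalises arrays and summarises probes, so differences of dim genes are compressed. The authors' deposited table also holds p-values and linear fold changes of their own comparisons, per the file headers. Another 7 per-sample columns of a drawing sheet were not used. The labels name 4 sorts for each genotype, and 3 Wnt+ arrays were analysed here.

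Of 28944 clusters, 23812 carried a symbol, and 23508 of these matched RefSeq (GRCm38.p6) by Entrez identifier. The brightest cluster per gene left 20719 genes. limma 3.58.1 in R 4.3.3 (lmFit, eBayes, group as the 1 coefficient) was fitted to all of them with Benjamini-Hochberg adjustment and a threshold of 0.05. Tests were two-sided, and the scripts were tested on simulated data. The number of arrays limits the precision. No p was computed over the collagen list. Members, lists and classes were chosen with earlier results of these data known. Named collagens had an unadjusted p under 0.05, or were among the 3 brightest or the 3 with the largest differences of their class. In other lists up to 4 genes with the smallest p were named. Alternatives were a replicate block, leaving out arrays, a filter on dim genes, median-centring, array weights, trended and robust moderation, no moderation, and other uses of clusters. Plots used matplotlib 3.10.9 in Python 3.11.15.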

Additional observations from a re-analysis of the deposited data

Results flagged for a closer look

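In SF1+ replicate 2, Col14a1 read 4.58, against 3.80 to 3.92 in the other 3 SF1+ arrays. The gap was large enough to mark that Col14a1 value, not the library, as an outlier by Dixon's test among 4 arrays. In all, 17 sets of SF1+ values were tested this way (14 named collagens and 3 class means) and 1 was marked, where chance marks about 1 in 20. The same library had the highest fibroblast and capsule marker mean of the SF1+ arrays, at 5.17. The part of that mean in the Col14a1 value was not tested.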

How the results depend on the processing

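No collagen passed the threshold with limma under any of the 15 alternatives, and the lowest adjusted p was 0.0612 (Col18a1 without Wnt+ replicate 1). Counts of collagens at an unadjusted p under 0.05 moved more. Against 5 higher, there were 3 with the replicate block, 3 with the filter on dim genes, which left 9 collagens, 3 with no moderation, and 2 to 10 with each array left out. Against 2 lower, there was 1 with the replicate block, with the dim filter and with median-centring, and 1 to 3 with each array left out. Leaving out members that never reached a log2 value of 4 moved the class means from 0.21 to 0.65 (fibrillar), from -0.16 to -0.52 (basement membrane) and from 0.13 to 0.71 (other). Without Wnt+ replicate 2 these means were 0.38, -0.09 and 0.24, and without Wnt+ replicate 3 they were 0.078, -0.19 and 0.058. Of 191 recomputed differences of named collagens, 190 kept their sign, but part of this count was fixed in advance. The dim filter and the changes of moderation leave a difference as it was, as does the mean of clusters for a gene with 1 cluster. The replicate block gave the same differences as leaving out SF1+ replicate 4. The difference of Col6a5 turned to -0.037 without Wnt+ replicate 1, in a range of -0.037 to 0.49. Over all genes, 53 passed the threshold, against 1 to 312 with each array left out (1 without SF1+ replicate 2 or 3, 312 without Wnt+ replicate 1), 213 with the dim filter, 155 with trended and robust moderation, 33 with array weights, 27 with median-centring, 0 with the replicate block (unadjusted p under 0.05 for 1180 in the higher and 1288 in the lower direction) and 0 with no moderation (1404 and 1280). The replicate numbers did not pair the arrays: deviations of same-numbered arrays correlated at -0.22, 0.03 and -0.21 over genes, and no Wnt+ array correlated best with its own number. Fewer genes or arrays entered some of these fits, and the cause of the shifts was not tested. The arrays give no counts, and 34 of the 43 collagens had no array at a log2 value of 4.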

Other observations

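Of the 43 collagens, 4 had a second transcript cluster, and the clusters of a gene did not always give the same difference. Those of Col5a1 gave 0.14 and 0.14, and those of Col6a5 gave 0.25 and 0.04. Those of Col20a1 gave 0.31 and -0.05, and those of Col6a6 gave -0.07 and 0.13. Col20a1 therefore rests on 1 of its clusters for the direction reported above.

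Schwann cell markers were measured as a further possible source of collagen. Of 7, 7 had positive differences (54.8% of all genes) and 2 an unadjusted p under 0.05 (7.61% of all genes were higher). Cdh19, a cadherin of Schwann cell precursors, was at 2.14 to 2.31 in SF1+ and at 3.51, 2.57 and 3.26 in Wnt+, and differed by 0.88 (SE 0.21, limma adjusted p = 0.133). Within Wnt+, replicate 2 was the lowest for Cdh19, as it was for Col1a1, Col1a2 and Col3a1. The part of these markers in the collagen values was not tested.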
